A study of Mus musculus with 14 samples.

Results

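The transcripts of 8 voltage-gated calcium channel subunit genes were followed in sorted mouse heart muscle cells in which Ryr2, the calcium release channel of the sarcoplasmic reticulum, had been targeted. The genes were chosen by symbol as subunits of L-type and T-type channels: the pore-forming alpha-1 subunits Cacna1c, Cacna1d, Cacna1g and Cacna1h, the beta subunits Cacnb2 and Cacnb3, and the alpha-2-delta subunits Cacna2d1 and Cacna2d2. All 8 were found among the 23337 genes of the count table, and 5 of them held enough reads to be tested among 11170 genes. Every animal was of the Rosa-Cas9GFP line, so both groups carried Cas9 and GFP at the Rosa locus, and received its virus at postnatal day 1. The gRNA group (n = 7) was given AAV-Ryr2gRNA and the Ctrl group (n = 7) AAV-Cre, and heart cells were isolated 4 weeks after birth and sorted. The sources used here do not give the promoter behind Cas9 or the guide, or whether the guide virus also delivered Cre, so guide and vector cannot be told apart as sources of a difference. Nothing in the labels ties each library to a separate animal, so p-values measure the spread between libraries, which may be partly technical.

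An L-type channel is built around an alpha-1 subunit that forms the pore and senses voltage, with a beta subunit bound inside the cell and an alpha-2-delta subunit outside. In ventricular muscle the pore Cacna1c (CaV1.2) lets in the calcium that opens Ryr2 at each beat, Cacnb2 brings the pore to the membrane and tunes its gating, and Cacna2d1 raises its surface density and is the binding site of gabapentin. T-type channels, with the pores Cacna1g (CaV3.1) and Cacna1h (CaV3.2), open at lower voltage, do not need these auxiliary subunits, and are known from pacemaker tissue and the fetal heart.

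Of the 5 tested subunits, Cacna2d1 was lower in the gRNA group, and Cacna1c, Cacna1g, Cacna1h and Cacnb2 did not pass the test. The test was edgeR's quasi-likelihood test with Benjamini-Hochberg adjustment over all tested genes, and the threshold for a call was an adjusted p under 0.05. By this rule 28.2% of all tested genes were called, 14.5% as higher and 13.7% as lower, so 1 call in 5 is no more than the background. No tested subunit was called higher, none had an unadjusted p under 0.05 in that direction (0 of 5), and DESeq2 called 0 higher and 1 lower. The median log2 fold change was -0.13 over the 5 tested subunits and 0.01 over all tested genes.

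Regulatory DNA of 4 start sites is shown because it sets the subunit that fell beside the pore and the beta subunit of the same channel. Each line gives the 250 bases before an annotated start, read 5′ to 3′ on the gene's strand, from RefSeq (GRCm38.p6, the same assembly as mm10), and capitals mark the GC box GGGCGG on either strand. The table held starts for 6 of the 8 genes, and gene-level counts cannot tell which start of Cacna1c or Cacnb2 was used.
Cacna2d1 (chr5:15934441-15934690, plus strand): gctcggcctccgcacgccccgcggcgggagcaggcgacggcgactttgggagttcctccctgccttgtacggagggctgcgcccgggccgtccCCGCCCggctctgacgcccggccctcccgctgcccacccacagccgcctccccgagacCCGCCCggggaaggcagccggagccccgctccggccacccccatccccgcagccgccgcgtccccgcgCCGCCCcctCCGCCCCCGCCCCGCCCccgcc
Cacna1c, outermost start (chr6:119196410-119196659, minus strand): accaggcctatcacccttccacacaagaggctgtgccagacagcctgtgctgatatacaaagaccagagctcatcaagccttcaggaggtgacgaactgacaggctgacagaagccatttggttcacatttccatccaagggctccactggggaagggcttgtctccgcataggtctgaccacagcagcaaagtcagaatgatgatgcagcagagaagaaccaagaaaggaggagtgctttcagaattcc
Cacna1c, second start (chr6:119108496-119108745, minus strand): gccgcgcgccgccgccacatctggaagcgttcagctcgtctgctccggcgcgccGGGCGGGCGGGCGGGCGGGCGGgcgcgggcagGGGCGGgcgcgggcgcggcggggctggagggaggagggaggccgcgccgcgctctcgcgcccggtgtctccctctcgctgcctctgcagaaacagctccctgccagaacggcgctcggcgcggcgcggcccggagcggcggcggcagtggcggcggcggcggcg
Cacnb2, outermost start (chr2:14604056-14604305, plus strand): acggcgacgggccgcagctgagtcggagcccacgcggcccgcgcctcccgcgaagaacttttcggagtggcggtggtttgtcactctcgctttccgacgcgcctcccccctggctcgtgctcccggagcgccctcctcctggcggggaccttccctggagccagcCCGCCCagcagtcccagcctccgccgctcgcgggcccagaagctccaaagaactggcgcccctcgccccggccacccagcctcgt
The Cacna2d1 stretch was 82.4% G and C with 36 CpG dinucleotides and 6 matches of the GC box, where matches that share a base were counted separately. The outermost Cacna1c stretch had 51.6% G and C, 2 CpG and 0 GC boxes, whereas its second start had 82.8%, 48 and 6, and the Cacnb2 stretch 73.2%, 30 and 1. Of the listed starts not printed, the inner Cacnb2 start (chr2:14823842-14824091) had 46% G and C, 3 CpG and 0 GC boxes, and the third Cacna1c start (chr6:118757975-118758224) 50.4%, 5 and 0. Among 32851 windows of the same length at all listed starts the median was 52.4% G and C, 32.7% held at least 1 GC box, and 8.47% held 3 or more. The cAMP response element TGACGTCA and the ATF4 composite element TGATGCAA, found in 1.55% and 0.791% of all windows, had no match in these 4 stretches on either strand. Also searched were the antioxidant response element TGACNNNGC (in 10.2% of all windows), the TATA box TATAAA (12.4%), the NFAT core GGAAA (55.6%), the GATA site AGATAA (9.99%) and the E-box CANNTG (66.2%). Of these the Cacna2d1 stretch held none (0 matches). The outermost Cacna1c stretch held 1 antioxidant response element, 1 NFAT core and 1 E-box. Its second start held 1 E-box, and the Cacnb2 stretch 1 NFAT core and 1 E-box. A match is a run of letters and not a known binding site, and its absence says only that the letters are not in this window.

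Library totals ranged from 6313220 to 13165662 reads in the Ctrl group and from 5689335 to 11064715 in the gRNA group, and normalised values are counts relative to scaled library size (CPM). Ryr2, the targeted gene, checks the labels. It was at 602 CPM in the lowest, 649 in the median and 763 in the highest Ctrl library, and at 225, 324 and 371 CPM in the gRNA libraries, with no overlap (log2 fold change -1.13, SE 0.0977, adjusted p = 3.3e-07, edgeR). The second principal component (24.2% of the variance) set apart replicates 4 and 5 of each group, the libraries that carry library index 7 to 10 in the labels. No label calls these 4 libraries a batch, so values within them (2 per group) and within the other 10 (5 per group) are given beside the results. In the 4 libraries the summed level of 8 fibroblast markers averaged 599.5 CPM in controls and 1177 CPM in gRNA libraries, against 213 and 263 CPM in the other 10. Summed macrophage markers ranged from 23.0 to 111 CPM in Ctrl libraries and from 57.9 to 428 CPM in the gRNA group, and averaged 109 and 351 CPM in the 4 libraries against 37.9 and 77.5 CPM in the rest. All 10 cardiomyocyte markers were present and summed to between 132354 and 155807 CPM in Ctrl and between 104117 and 136305 CPM in gRNA libraries. Of the 10 markers 7 were called lower (median log2 -0.30 over the 10), where 13.7% of all tested genes were called lower. No share matched to the levels of these markers was taken. Myh6, Actn2 and Ttn were not called (log2 fold change -0.06, -0.05 and -0.0030, edgeR adjusted p = 0.66, 0.63 and 0.99).

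Transcript levels were first ordered within each group. Per exonic length, Cacnb2 and Cacna2d1 stood highest in controls, followed by the pore Cacna1c. Mean CPM per kilobase of exon in the Ctrl group was 22.9 ± 4.21 for Cacnb2, 22.1 ± 2.75 for Cacna2d1 and 12.9 ± 1.96 for Cacna1c (SD, n = 7). The T-type pores followed with 3.49 ± 0.420 for Cacna1g and 1.58 ± 0.403 for Cacna1h. The remaining subunits were near the detection limit, at 0.262 ± 0.0924 CPM per kilobase for Cacna2d2, 0.207 ± 0.167 for Cacnb3 and 0.0644 ± 0.0537 for Cacna1d.

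Cacnb2 and Cacna2d1 could not be put in order, since Cacnb2 was the higher in 3 of 7 control libraries. From Cacna2d1 through Cacna1c, Cacna1g and Cacna1h down to Cacna2d2, each gene was above the next in 7 of 7 control libraries, with ranges that did not overlap. The steps were 1.71-fold, 3.70-fold, 2.21-fold and 6.02-fold. Among the last 3 genes the ranges overlapped. In the gRNA group the ranges of Cacna2d1 and Cacna1c overlapped, with a mean of 16.3 ± 1.62 CPM per kilobase for the first and 14.9 ± 3.15 for the second (SD, n = 7), and Cacna2d1 was the higher in 5 of 7 libraries. These levels divide by the length of all annotated exons together and not by the isoform in use, which can shift genes against each other but not a gene between groups unless its isoforms change.

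**Figure D1:**
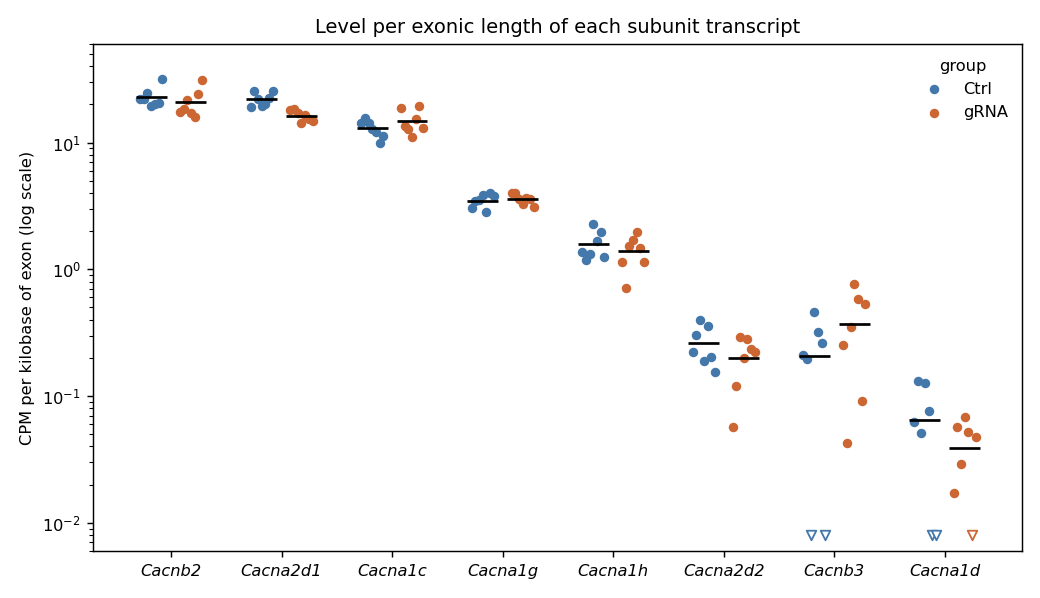
Level of each subunit in every library as CPM per kilobase of exon, on a log axis. Points are libraries (Ctrl blue, gRNA orange), bars are group means with zeros included, and open triangles at the bottom are libraries with a count of 0. Cacnb2, Cacna2d1 and Cacna1c lie between 9.96 and 31.6 in both groups, the T-type pores below them, and Cacna2d2, Cacnb3 and Cacna1d lowest.

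Cacna2d1 (chromosome 5, 15934691 to 16374511, plus strand, 7493 bp of exon) was the member whose groups separated. Control libraries held 142 CPM at the lowest, 164 at the median and 192 at the highest, and gRNA libraries 107, 123 and 138 CPM. Every gRNA library lay below every control, although the gap between the groups was small next to the spread within them. The mean fell by 26.0%, from 165 ± 20.6 to 122 ± 12.1 CPM (SD, n = 7 per group), a log2 fold change of -0.43 (SE 0.0821, edgeR adjusted p = 7.8e-04), with a 95% interval of -34.3% to -16.5%. Of all tested genes 10.5% had groups that did not overlap, 4.71% with the gRNA group lower and 5.84% with it higher. Among the 876 genes within 0.5 log2 units of the mean level of Cacna2d1 that share was 19.3% in either direction.

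The decrease in Cacna2d1 was of like size in both sets of libraries. Its log2 fold change was -0.45 in the 10 libraries outside index 7 to 10 (adjusted p = 0.0026) and -0.41 within the 4 libraries of that range (adjusted p = 0.034, edgeR), and over leaving out each of the 14 libraries it ran from -0.47 to -0.39. The authors' deposited table gives -0.44 for Cacna2d1 with an adjusted p of 7.8e-06. A decrease was common at this level: of the same 876 genes, 29.1% were called lower, with a median log2 fold change of -0.07. Of the 10 cardiomyocyte markers 7 were called lower, whereas Myh6, Actn2 and Ttn were not called, as given above. The part of these markers in the Cacna2d1 result was not tested. In sorted but bulk samples, fewer cells of a type and less RNA per cell cannot be told apart.

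**Figure D2:**
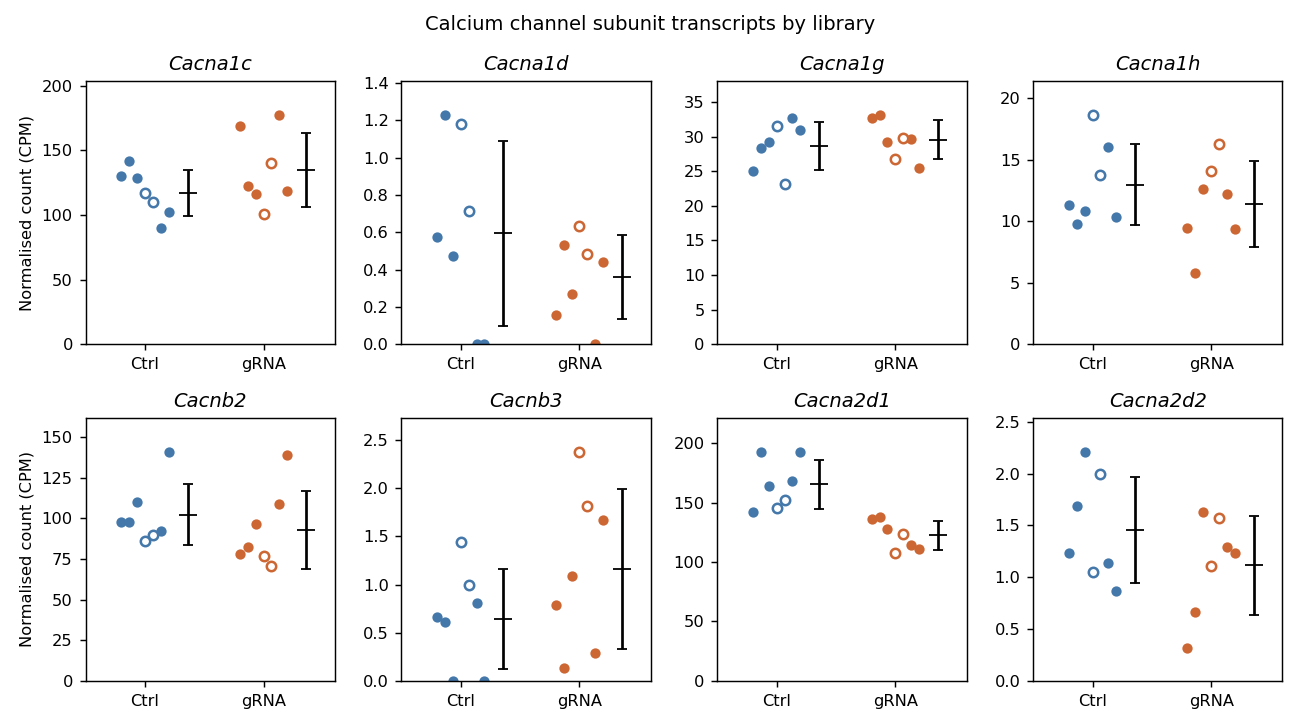
Normalised counts (CPM) of the 8 subunits in each library, with axes from 0. Points are libraries in order of replicate number, open points are the 4 libraries with library index 7 to 10, and bars show mean and SD (n = 7). For Cacna2d1 alone among the 8 the groups do not overlap, with the highest gRNA library at 138 and the lowest Ctrl library at 142 CPM.

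The other alpha-2-delta gene, Cacna2d2 (chromosome 9, 107399880 to 107529343, plus strand), had between 5 and 15 reads per control library and between 2 and 14 per gRNA library and was not tested. Its level was 1.45 ± 0.512 CPM in Ctrl and 1.11 ± 0.476 CPM in gRNA libraries (SD, n = 7 per group), with overlapping groups. Without a filter on low counts its log2 fold change came to -0.35 (SE 0.327, edgeR adjusted p = 0.50). Per exonic length, Cacna2d2 made up 1.19 ± 0.434% of the transcripts of both alpha-2-delta genes in Ctrl and 1.24 ± 0.544% in gRNA libraries, so Cacna2d1 supplied nearly all of this class in each.

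Cacna1c (chromosome 6, 118592296 to 119196409, minus strand, 9053 bp of exon), the L-type pore of ventricular muscle, did not pass the test. It was at 90.1, 117 and 141 CPM in the lowest, median and highest control library and at 100.5, 122 and 177 CPM in the gRNA libraries. The groups overlapped broadly, and 2 gRNA libraries (replicates 1 and 6) lay above the highest control. Group means were 117 ± 17.8 and 135 ± 28.5 CPM (SD, n = 7 per group), a log2 fold change of 0.20 (SE 0.125, edgeR adjusted p = 0.26). The 95% interval ran from -4.25% to 38.1%, a range that includes 0 and does not reach a decrease of the size measured for Cacna2d1. Within the 4 libraries of index 7 to 10 the log2 fold change was 0.05, and among the other 10 it was 0.24.

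Set against Ryr2 in the same library, Cacna1c transcripts per exonic length came to 0.321 ± 0.0260 in Ctrl and 0.808 ± 0.0946 in gRNA libraries (SD, n = 7 per group). The ranges, 0.270 to 0.350 and 0.683 to 0.975, did not overlap. Since Ryr2 was the gene targeted, this ratio is a description of the transcript balance between the entry and release channels and carries no test. The ratio of Cacna1c to Cacna2d1 per exonic length was 0.594 ± 0.116 in Ctrl and 0.915 ± 0.195 in gRNA libraries, with ranges that met between 0.735 and 0.756, and whether the 2 genes differ in their response was not tested.

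Cacna1d (chromosome 14, 30039939 to 30491156, minus strand), the L-type pore best known from the sinoatrial node and endocrine cells, was close to absent. It had at most 9 reads in a control library and at most 5 in a gRNA library, and 0 reads in control replicates 6 and 7 and gRNA replicate 6. A count of 0 allows up to 3 reads, or 0.487, 0.518 and 0.431 CPM in these libraries (counting error only). The mean was 0.595 ± 0.496 CPM in Ctrl and 0.359 ± 0.225 CPM in gRNA libraries (SD, n = 7 per group), and it was not tested. Without a filter the log2 fold change of Cacna1d came to -0.72 (SE 0.607, edgeR adjusted p = 0.45). Its exons overlap those of Chdh on the same chromosome, a gene with at most 3 reads in any library. The nodal and conduction markers that could accompany it summed to between 74.6 and 125 CPM in Ctrl and between 68.0 and 118 CPM in gRNA libraries, and of 7 tested none was called (0 with an unadjusted p under 0.05 by edgeR, 0 called by DESeq2).

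The T-type pore Cacna1g (chromosome 11, 94408391 to 94474198, minus strand, 8223 bp of exon) did not pass the test. Control libraries held 23.2, 29.2 and 32.6 CPM (lowest, median, highest) and gRNA libraries 25.5, 29.7 and 33.1 CPM. The groups overlapped over nearly their whole ranges, with means of 28.7 ± 3.46 and 29.5 ± 2.80 CPM (SD, n = 7 per group), a log2 fold change of 0.04 (SE 0.0867, edgeR adjusted p = 0.76). The 95% interval of the difference was -9.22% to 17.0%. The sign of so small a difference turned on leaving out control replicate 5 (log2 -0.0020).

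Cacna1h (chromosome 17, 25374287 to 25433783, minus strand, 8228 bp of exon), a T-type pore known from the fetal ventricle, did not pass either. It was at 9.81, 11.4 and 18.6 CPM in the lowest, median and highest control library and at 5.82, 12.2 and 16.3 CPM in the gRNA libraries. Of the gRNA libraries 3 lay below the lowest control and none above the highest. Group means were 12.99 ± 3.32 and 11.4 ± 3.47 CPM (SD, n = 7 per group), a log2 fold change of -0.19 (SE 0.199, edgeR adjusted p = 0.53), with a 95% interval of -34.5% to 17.4%. Over leaving out each library the log2 fold change of Cacna1h ran from -0.08 (without gRNA replicate 2, and also without control replicate 4) to -0.30 (without gRNA replicate 5), and it was not called in any of these fits (adjusted p of at least 0.29). The annotated exons of Cacna1h overlap those of Tpsg1, which had 0 reads in all 14 libraries.

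Cacna1h averaged higher in libraries of index 7 to 10 in both groups, although control libraries within and outside that range overlapped. Control replicate 5, within the range, held 13.8 CPM, and control replicate 6, outside it, held 16.1 CPM. Libraries of index 7 to 10 averaged 16.2 CPM in Ctrl and 15.2 CPM in the gRNA group, against 11.7 ± 2.52 and 9.90 ± 2.72 CPM in the other 10 libraries (SD, n = 5 per group). The summed fibroblast and macrophage markers also averaged higher in these libraries. So did endothelial markers, with 773 and 838 CPM in Ctrl and gRNA libraries against 455 and 324 CPM in the other 10, and nodal and conduction markers, with 116 and 114 CPM against 92.3 and 78.5 CPM. The part of these cell types in the level of Cacna1h was not tested. The T-type share of the 4 alpha-1 transcripts, per exonic length, was 28.4 ± 5.22% in Ctrl and 25.5 ± 3.58% in gRNA libraries (SD, n = 7 per group), and Cacna1h made up 30.9 ± 5.15% and 27.6 ± 7.10% of the T-type transcripts. Both shares overlapped between groups.

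Cacnb2 (chromosome 2, 14604306 to 14987908, plus strand, 4450 bp of exon), the main beta subunit of heart muscle, did not pass. Control libraries held 85.8 CPM at the lowest, 97.7 at the median and 141 at the highest, and gRNA libraries 70.8, 82.1 and 139 CPM. Replicate 7 was the highest library in each group, and 4 gRNA libraries lay below the lowest control. Group means were 102 ± 18.7 and 93.0 ± 24.0 CPM (SD, n = 7 per group), a log2 fold change of -0.13 (SE 0.144, edgeR adjusted p = 0.56), with a 95% interval of -25.9% to 12.9%. The value of Cacnb2 rested much on replicate 7: the log2 fold change was -0.04 without control replicate 7 (adjusted p = 0.88) and -0.26 without gRNA replicate 7 (adjusted p = 0.13, edgeR). It was -0.07 without gRNA replicate 4 or 5. Within library index 7 to 10 the log2 fold change was -0.30 (adjusted p = 0.11) and among the other 10 libraries -0.09 (adjusted p = 0.72).

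Cacnb3 (chromosome 15, 98632220 to 98644530, plus strand), a beta subunit known mainly from smooth muscle and neurons, was at the detection limit and not tested. It had between 0 and 11 reads in control libraries and between 1 and 19 in gRNA libraries, and the 2 controls with 0 reads (replicates 3 and 7) allow up to 0.473 and 0.518 CPM. Group means were 0.646 ± 0.520 and 1.16 ± 0.828 CPM (SD, n = 7 per group), with 3 gRNA libraries above the highest control and the rest within the control range. Without a filter its log2 fold change came to 0.80 (SE 0.579, edgeR adjusted p = 0.41). As with Cacna1h, Cacnb3 averaged higher in libraries of index 7 to 10, with 1.22 CPM in Ctrl and 2.09 CPM in gRNA libraries there against 0.417 ± 0.387 and 0.792 ± 0.621 CPM elsewhere (SD, n = 5 per group). The summed smooth muscle and pericyte markers, cells in which Cacnb3 is known, ranged from 999 to 1304 CPM in Ctrl and from 1425 to 2273 CPM in gRNA libraries. The sum averaged 1181 and 1645 CPM and Acta2 alone 696 and 1211 CPM, so the other markers together did not rise. Of 9 tested, Acta2, Tagln and Cspg4 were called higher and Abcc9 lower (350 and 270 CPM). Among all tested genes 14.5% were called higher and 13.7% lower. The 5 not called were Myh11, Rgs5, Kcnj8, Pdgfrb and Notch3, with log2 fold changes between -0.24 and 0.33. Within library index 7 to 10 the sum averaged 1274 CPM in Ctrl and 1488 CPM in gRNA libraries, against 1144 and 1708 CPM in the other 10. The part of these markers in the Cacnb3 values was not tested. Cacnb3 made up 0.997 ± 0.835% and 1.86 ± 1.5% of the transcripts of Cacnb2 and Cacnb3 together in the 2 groups, and 0.616% and 1.06% without the libraries of index 7 to 10.

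**Figure D3:**
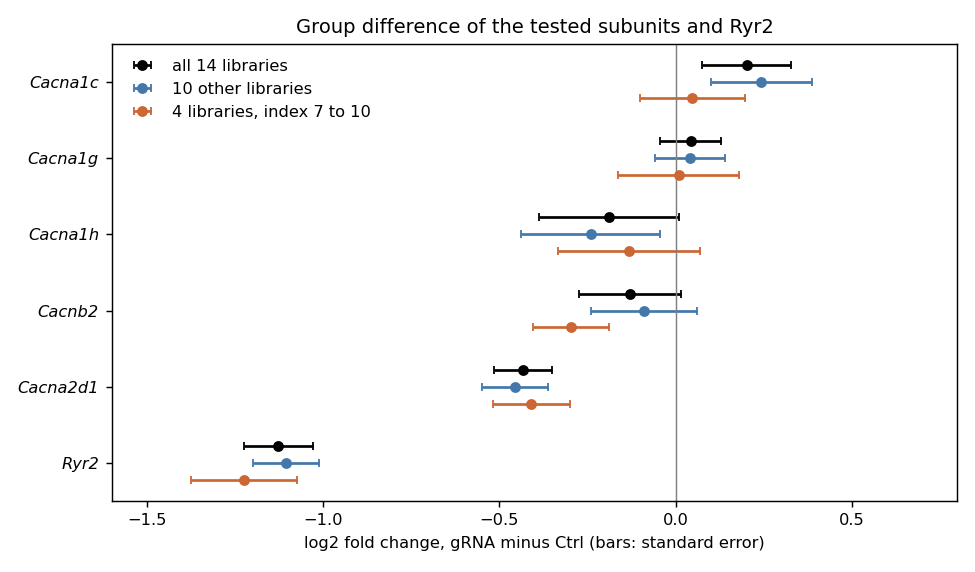
Log2 fold change (gRNA minus Ctrl, horizontal axis) of the 5 tested subunits and Ryr2, with standard errors from edgeR, for all 14 libraries (black), the 10 outside library index 7 to 10 (blue) and the 4 within it (orange). Cacna2d1 lies at -0.43, -0.45 and -0.41, and the other subunits lie closer to 0.

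For each tested member a direct test of whether the group difference changed between the 2 library sets was not passed (adjusted p = 1.0 for each, edgeR interaction term). For Cacna2d1 the estimated change was 0.09 and for Cacnb2 -0.16 on the log2 scale.

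**Figure D4:**
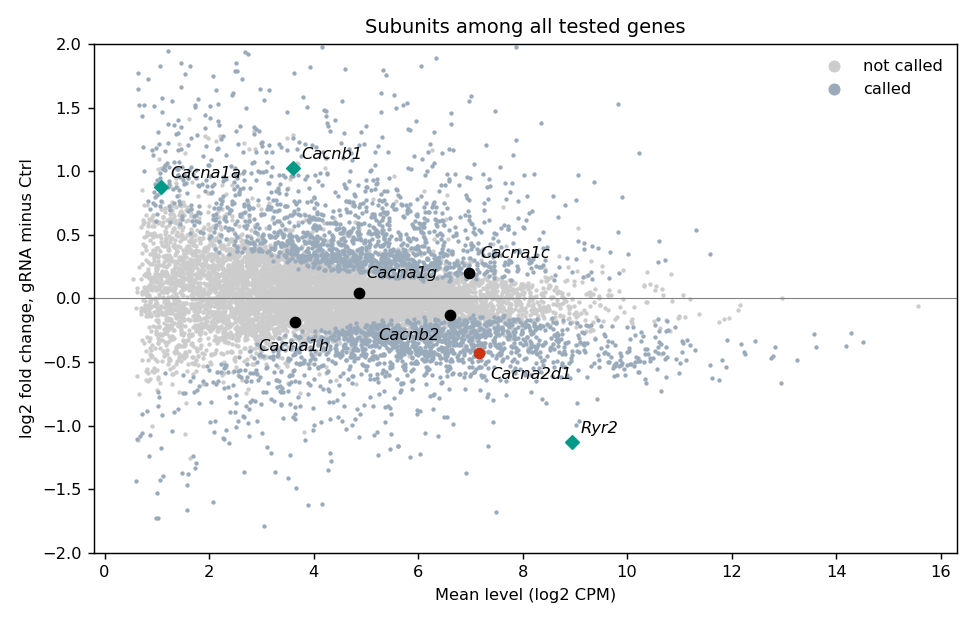
Log2 fold change against mean level (log2 CPM) for all 11170 tested genes (grey not called, blue called; 88 genes beyond 2 log2 units in either direction are not drawn). Subunits that were not called are black, Cacna2d1 is red, and Ryr2, Cacnb1 and Cacna1a are green diamonds. Cacna2d1 lies at -0.43 and Cacna1c at 0.20.

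The rest of the channel family was read from a list of 18 other subunits, of which 4 passed the filter on low counts. Cacnb1 and Cacna1a were called higher and 0 lower (0 also at an unadjusted p under 0.05 in edgeR, and 0 by DESeq2), where 14.5% of all tested genes were called higher and 28.2% either way. Cacna1a passed the filter mainly through its gRNA libraries, so its place among the tested genes is not independent of its direction, and the count of 2 describes the 4 genes that passed and not the list. Cacnb1, the beta subunit of the skeletal muscle channel, rose from 7.78 ± 1.87 to 15.9 ± 3.0 CPM (SD, n = 7 per group), a log2 fold change of 1.02 (SE 0.159, edgeR adjusted p = 1.4e-04). Its lowest gRNA library, 11.8 CPM, was above its highest control, 9.51 CPM, and the log2 fold change was 0.98 among the 10 libraries outside index 7 to 10 and 1.10 within it. Per exonic length Cacnb1 was at 3.17 CPM per kilobase in Ctrl and 6.46 in gRNA libraries, still under the 20.9 of Cacnb2.

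Cacna1a, the pore of the neuronal P/Q-type channel, rose from 1.30 ± 0.428 to 2.39 ± 0.325 CPM (SD, n = 7 per group), a log2 fold change of 0.87 (edgeR adjusted p = 0.0056), with at most 24 reads per library. Within library index 7 to 10 the Cacna1a call was lost (log2 0.45, adjusted p = 0.52). Cacna1s, the skeletal L-type pore, stood at 7.20 ± 3.35 and 9.30 ± 2.39 CPM (log2 0.38, adjusted p = 0.32), and Cacng6, a gamma subunit, had a log2 fold change of 0.09 (adjusted p = 0.84). Of the 14 subunits that were not tested, 6 had 0 reads in every library (Cacna2d4, Cacng2, Cacng3, Cacng5, Cacng7 and Cacng8), which allows between 0.247 and 0.518 CPM per library.

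Proteins that set L-type current from outside the channel were listed as 35 genes, of which 29 were tested. In the gRNA group 7 were called lower and 0 higher (9 lower and 0 higher at an unadjusted p under 0.05 in edgeR, and 8 and 0 by DESeq2), or 24.1% lower against 13.7% of all tested genes, with a median log2 fold change of -0.08. The share of tested genes called lower depended on level. Within 0.5 log2 units of the member's mean level it was 6.73% for Cacna1h, 25.2% for Cacnb2 and 29.1% for Cacna2d1. No share matched to the levels of the regulators was taken, so 24.1% is not read as an excess. The arm that phosphorylates the channel after adrenergic stimulation held 3 of the 7 regulators called lower. Other tested genes of this arm were not called and went in both directions. Among them were Prkacb (log2 fold change -0.09), Prkar1a (0.06), Akap5 (-0.11), Adrb1 (0.24) and Gnas (-0.03), with edgeR adjusted p between 0.16 and 0.86. Prkaca, the catalytic subunit of protein kinase A, fell from 502 ± 50.8 to 385 ± 53.4 CPM (SD, n = 7 per group), a log2 fold change of -0.39 (SE 0.0847, edgeR adjusted p = 0.0025). The regulatory subunit Prkar2a fell by 0.26 and the anchoring protein Akap7, which tethers the kinase near the channel, by 0.37 on the log2 scale. The phosphatase calcineurin was lower in both listed catalytic genes, Ppp3ca by 0.31 and Ppp3cb by 0.27 in log2 units. Cav3, the caveolin of muscle membranes, fell by 0.31, and the edgeR adjusted p of these 5 genes lay between 0.0016 and 0.016. The phosphodiesterase Pde4d fell by 0.30 (adjusted p = 0.028), a call lost on leaving out any of control replicates 1, 3 and 7 or gRNA replicates 3, 5 and 6, with log2 fold changes still between -0.29 and -0.27 (adjusted p between 0.053 and 0.068). Within library index 7 to 10 the value of Pde4d was -0.17 (adjusted p = 0.66). Within library index 7 to 10 Prkaca was the 1 regulator still called lower.

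Rrad, a small GTPase of the RGK family that holds the L-type channel closed until it is phosphorylated, was abundant and did not pass, at 574 ± 176 CPM in Ctrl and 702 ± 152 CPM in gRNA libraries (SD, n = 7 per group), a log2 fold change of 0.29 (edgeR adjusted p = 0.21). Leaving out control replicate 7 gave Rrad a log2 fold change of 0.46 (adjusted p = 0.015, edgeR), past the threshold.

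**Figure D5:**
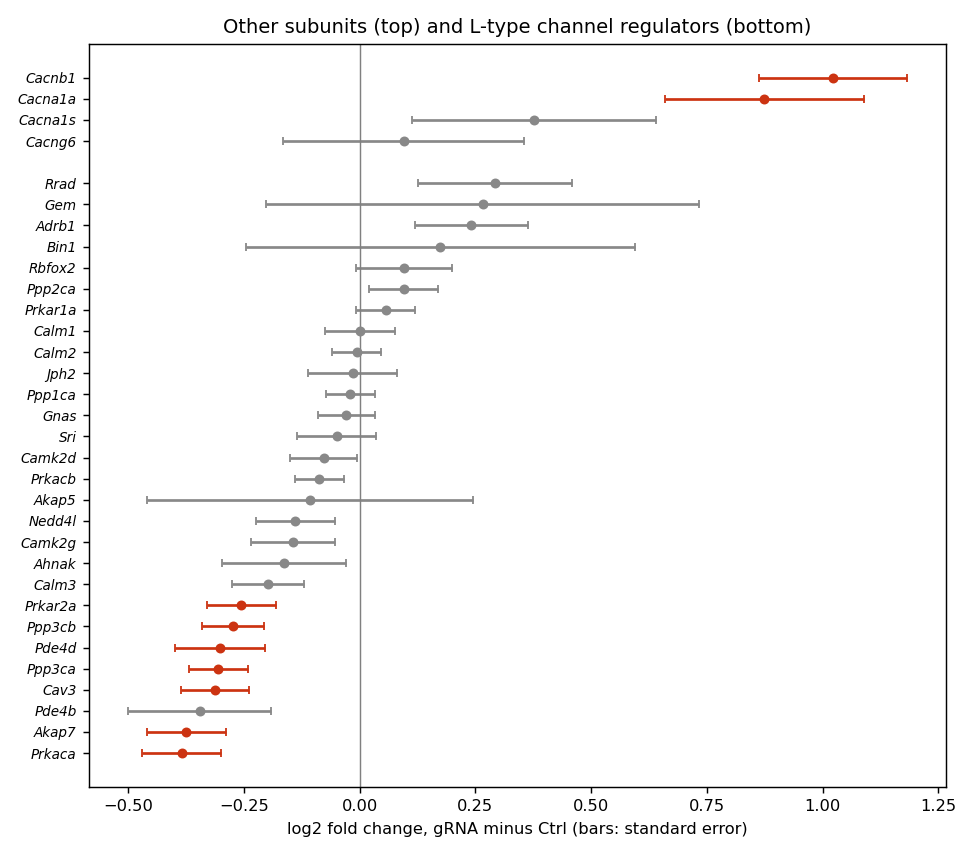
Log2 fold change (gRNA minus Ctrl) with standard errors for the 4 tested other subunits (top) and the tested regulators (bottom, 1 of the 29 not drawn), each gene on its own line. Red marks genes called at an adjusted p under 0.05: Cacnb1 and Cacna1a are higher, and 7 regulators between -0.26 and -0.39 are lower.

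The genes whose profile over the 14 libraries lay nearest to a member were found by the root mean square difference of centred log2 CPM. For Cacna2d1 they were Ndufs1 (0.0835), a subunit of respiratory complex I, Mrpl3 (0.0860), a protein of the mitochondrial ribosome, and Ivd (0.0918), an enzyme of leucine breakdown. For Cacna1c they were Svil (0.0733), Rbfox2 (0.109), a splicing regulator, and Pde4dip (0.118). For Cacnb2 they were Tomm5 (0.101), Deb1 (0.123) and Naa38 (0.126). The profiles of the members themselves varied with an SD of 0.271 (Cacna2d1), 0.272 (Cacna1c) and 0.295 (Cacnb2), and likeness over these libraries includes the group difference and library composition.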

How the data were processed

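Poly(A) RNA was sequenced from sorted mouse heart cells after PureLink extraction, SMART-Seq v4 amplification and Nextera XT preparation, per the labels' protocols. The deposited counts are whole reads per gene, not normalised, and STAR, featureCounts, DESeq2, DESeq and mm10 are named in the submitters' processing notes; the sources used here do not give versions, annotation or strand setting. Without strand, reads of overlapping genes cannot be told apart. Reads carry no molecular identifiers, so limits for 0 reads cover counting error only.

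The authors' deposited table gives, per the file headers, a mean signal of counts over size factors, log2 fold changes, a Wald score, p-values and adjusted p-values, and serves for description only.

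Counts were tested with edgeR 4.0.16 (R 4.3.3; filterByExpr with a minimum count of 10, TMM scaling, quasi-likelihood F test, two-sided, no covariates). CPM uses TMM-scaled library sizes, and profiles a prior count of 2. Groups came from sample titles. No column was left unmapped (0), and no row lacked a gene name (0). Libraries of a group differed beyond sampling noise (chi-square per degree of freedom of at least 4.82). The edgeR steps were tested on simulated data. Alternatives were RLE and upper-quartile scaling, DESeq2 1.42.0, 2 other filters, a replicate block, a library-set term or split, and leaving out each library.

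The members, the lists of other subunits, regulators and markers, and the split by library index were chosen with earlier results of these data known. Named genes were the 8 members, Ryr2, the 6 tested genes with the smallest p in the subunit and regulator lists, every gene behind a count of at most 5, and the 3 nearest profiles of the most abundant member per class. Pde4d was added after its values were seen, to complete the 7 regulators called lower. Prkacb, Prkar1a, Akap5, Adrb1 and Gnas were also added after their values were seen, as uncalled genes of the adrenergic arm. Cbarp was not matched to a row and was not analysed here, and 1 tested regulator, which was not called over all 14 libraries, is counted but not reported by itself here.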

Additional observations from a re-analysis of the deposited data

How the results depend on the processing

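The call of Cacna2d1 as lower, and that of Ryr2, held in every one of the 23 alternatives tried, with log2 fold changes between -0.47 and -0.39 for Cacna2d1 (adjusted p up to 0.034) and between -1.22 and -1.05 for Ryr2. Cacna1c (0.05 to 0.27), Cacna1h (-0.30 to -0.08) and Cacnb2 (-0.30 to -0.04) stayed uncalled with their sign in all 23, and Cacna1g ran from -0.0020 to 0.0787 over leaving out each library. Cacng6 ran from -0.0028 to 0.213, both turning sign without control replicate 5. No scaling moved the median of all genes by more than 0.0048 on the log2 scale. Within library index 7 to 10, with 2 libraries per group, 689 genes were called higher and 777 lower against 1621 and 1528. Of the lists, 1 other subunit (Cacnb1) and 1 regulator, not reported by itself here, were called higher and 1 regulator lower (Prkaca). The fewer samples are part of that setting's construction. Regulators called higher ranged from 0 to 1 over leaving out each library (Rrad without control replicate 7).

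Replicate numbers were not taken to pair the samples, since no label ties them to a shared source and not every pair was alike: same-numbered libraries correlated at 0.0614 to 0.533 in their deviations from the group means, 6 of 7 pairs above 0.1, and 2 gRNA and 1 control libraries matched best with their own number. With a replicate block 1922 genes were called higher and 1848 lower, 1 regulator was called higher (Rrad, log2 0.31, adjusted p = 0.027) and 8 lower, and no member changed its call. Depth limits Cacna1d, Cacnb3 and Cacna2d2, with at most 9, 19 and 15 reads in a library.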
